A study of Danio rerio with 20 samples.

Results

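Transcripts were sought whose abundance in whole zebrafish larvae was higher after lithium cobalt oxide (LCO) nanosheets than in untreated larvae and in larvae given an ion treatment. A single transcript, ENSDART00000146037.2, met the rule, of 57775 in the deposited tables and of 33421 with a mean of at least 0.5 TPM in the LCO libraries. It was chosen by the deposited TPM values themselves. Its lowest TPM over the 10 LCO libraries had to lie above its highest TPM over the 10 untreated and ion libraries, and a transcript was left out where all 5 ion libraries lay above all 5 untreated ones. The levels that follow for LCO against untreated or ion larvae therefore describe the selection and carry no test. TPM is a relative transcript level per effective transcript length that sums to a fixed total in each library.

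Larvae of a wild-type strain were sampled at 10 days post-fertilization after an exposure of 48 hours, and each library was made from a pool of 20 animals. There were 5 libraries from untreated larvae, 5 from larvae given LCO at 1 mg/L, 5 from larvae given LCO at 10 mg/L and 5 from larvae given the ion treatment. The sample records give 6 collected replicates, of which 5 per group are present here, and the missing replicate number is not the same in all groups. The labels do not state the ions or their concentration, nor whether pools shared parents or tanks, so spread between libraries is spread between these pools. Library totals ranged from 24950529 to 63120039 estimated counts. No transcript identifier could be paired with a gene (0 matches in the gene tables used here), so neither the gene behind any transcript nor markers of the tissue could be checked.

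LCO is a layered oxide used as the cathode material of lithium-ion batteries, and in water it can release lithium and cobalt ions. An ion group set beside a particle group is a common way to separate responses to dissolved metal from responses that need the particle. A pool of whole larvae mixes the RNA of all tissues, so that a higher level of a transcript can come from more cells that make it or from more RNA per cell, and these cannot be told apart here. A vertebrate gene often gives rise to several transcripts, and a change in one of them can be a change of the gene or a shift among its transcripts.

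ENSDART00000146037.2 is 4043 bases long, longer than 84.6% of the 33421 transcripts with a mean of at least 0.5 TPM in the LCO libraries, whose median length was 1781 bases. Its estimated counts ranged from 627 to 1862 per library, and no other transcript shared its rounded counts (0 others). In untreated larvae it was at 6.13, 6.43, 6.11, 4.61 and 6.95 TPM in replicates 1 to 5. Under ion it was at 7.55, 6.40, 7.00, 7.69 and 7.56 TPM in replicates 1, 2, 3, 4 and 6. At 1 mg/L it was at 14.2, 14.8, 9.31, 10.0 and 10.9 TPM in replicates 1, 2, 3, 5 and 6. These libraries of 1 mg/L all lay above the untreated and ion ones, and replicates 1 and 2 were the highest of the 20. At 10 mg/L it was at 7.93, 7.84, 9.90, 11.9 and 12.6 TPM in replicates 1, 2, 3, 4 and 6. Replicates 1 and 2 of 10 mg/L thus lay close to the upper ion libraries, and the other 3 lay among those of 1 mg/L.

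The mean level was 6.05 ± 0.870 TPM in untreated larvae and 7.24 ± 0.541 TPM in those given ion, against 11.8 ± 2.49 TPM for LCO 1 mg/L and 10.0 ± 2.19 TPM for LCO 10 mg/L (SD, n = 5 each). Relative to untreated larvae the mean was 1.96 times as high with the lower dose, 1.66 times with the higher dose and 1.2 times with ion, and the LCO mean was 1.51 times the ion mean. Ordered by ratio of LCO to untreated mean, this transcript ranked 527 of 33421, among which are ratios over untreated means near 0. On the deposited TPM most ion libraries were above the untreated ones too, so the transcript is described by its rule and not as one that ion left at the untreated level. On that scale the ion mean was above the untreated mean in 23187 of the 33421 transcripts, with a median log2 ratio of 0.10. After the rescaling described further on, the ion mean of ENSDART00000146037.2 was 1.12 times the untreated mean. On the deposited TPM, of the 5 ion libraries, 4 lay above all untreated ones, and replicate 2 alone, at 6.40 against the highest untreated value of 6.95 TPM, kept the transcript from being left out by the rule.

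**Figure D1:**
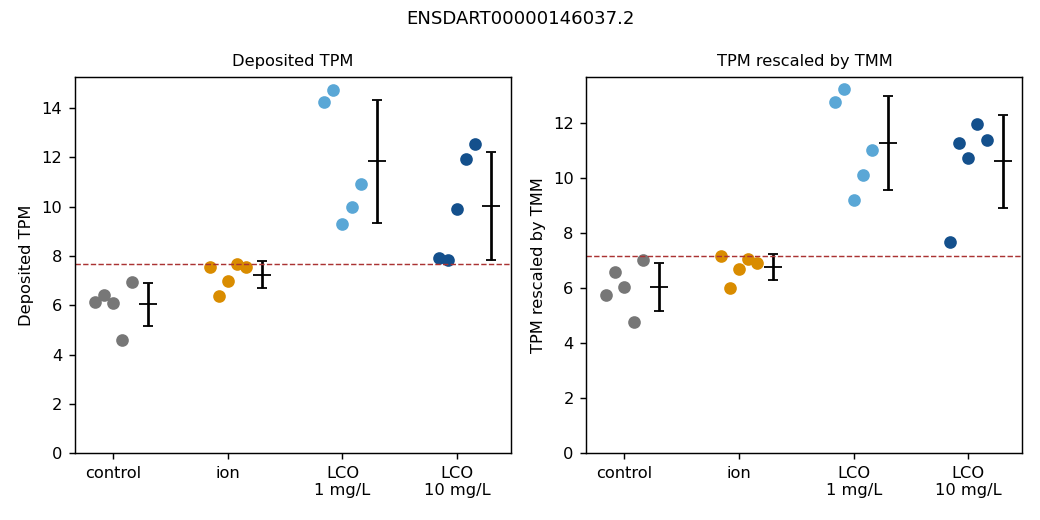
Level of ENSDART00000146037.2 in each library, as deposited TPM (left axis) and as TPM rescaled by TMM (right axis), by group, with untreated larvae marked control. Points are libraries, bars are the mean and SD of 5 libraries, and the dashed line marks the highest untreated or ion library. All 10 LCO libraries lie above the line on both scales, by a ratio of 1.02 on the left and 1.07 on the right for the lowest of them.

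The separation was narrow. The lowest LCO library, replicate 2 of 10 mg/L, was at 1.02 times the highest other library, replicate 4 of ion. These values rest on 890 and 1215 estimated counts, and the exact 95% interval of their ratio, which covers counting error only, ran from 0.934 to 1.11. These 2 libraries were picked as the extremes of their sets and their counts are estimates, neither of which the interval takes into account. By counting error alone their order was not resolved at this depth. The other limit of the rule, the mean of 0.5 TPM, bore on no transcript, since 0 transcripts under it had all LCO libraries above the others.

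The rule did not compare the doses with each other, although it asked for high values at both, which disfavoured transcripts low at either dose. The difference between the doses was tested across all transcripts by edgeR's quasi-likelihood test. ENSDART00000146037.2 did not pass. Its log2 fold change at 10 against 1 mg/L was -0.09 ± 0.12 (SE, n = 5 each), with an edgeR adjusted p of 0.910. The 95% interval of the fold ran from 0.790 to 1.12, so a moderate fall at 10 mg/L remains within it. In that comparison 0.213% of all 39355 tested transcripts were called, 84 in number, at an adjusted p under 0.05. The range of the adjusted p for this transcript over the other settings and tools was 0.861 to 0.989.

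By the ratio of the lowest LCO library to the highest untreated or ion one, the 3 transcripts just outside the rule were ENSDART00000111038.4 at 0.968, ENSDART00000073511.5 at 0.952 and ENSDART00000076494.5 at 0.906. Each missed separation by 2 of the 10 LCO libraries, of which replicate 2 of 10 mg/L was one. Counted by libraries, 16 other transcripts missed it by 1 alone, with lower ratios. ENSDART00000111038.4, 3236 bases long, was at 0.969, 1.02, 0.970, 0.752 and 0.973 TPM in untreated replicates 1 to 5. It was at 0.769, 0.734, 0.557, 0.445 and 0.741 TPM in ion replicates 1, 2, 3, 4 and 6. All but replicate 1 of these ion libraries were below every untreated library. At 1 mg/L the values were 1.75, 1.40, 0.995, 1.04 and 1.82 TPM in replicates 1, 2, 3, 5 and 6, and at 10 mg/L they were 1.25, 0.990, 1.91, 1.92 and 2.38 TPM in replicates 1, 2, 3, 4 and 6. Replicate 3 of 1 mg/L and replicate 2 of 10 mg/L fell just under the highest untreated library, and the other 8 LCO libraries lay above it. Its LCO mean was 1.65 times the untreated mean and its ion mean 0.693 times.

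ENSDART00000076494.5, 2388 bases long, was the most abundant of the 3 and had the same order of groups. It was at 53.8 ± 4.94 TPM in untreated larvae and 40.8 ± 5.76 under ion, and the highest ion library, 46.5 TPM, was below the lowest untreated one, 48.7 TPM. At 1 mg/L its values were 95.0, 66.8, 69.5, 57.2 and 72.3 TPM, and at 10 mg/L they were 67.4, 55.7, 89.2, 107 and 101 TPM, in the order of replicates given above. All but replicate 5 of 1 mg/L and replicate 2 of 10 mg/L were above the highest untreated library, 61.5 TPM. ENSDART00000073511.5, 1746 bases long, was at nearly equal means of 0.997 ± 0.150 TPM in untreated larvae and 0.962 ± 0.201 under ion. Its means were 1.46 ± 0.339 TPM at 1 mg/L and 1.45 ± 0.209 at 10 mg/L, and 8 of the 10 LCO libraries were above every other library. None of the 3 passed the test between the doses. Their log2 fold changes at 10 against 1 mg/L were 0.39 ± 0.19, 0.11 ± 0.18 and 0.35 ± 0.13 (SE) in the order first named, with edgeR adjusted p of 0.623, 0.924 and 0.433. Without adjustment, the 95% intervals of the fold were 0.987 to 1.74, 0.838 to 1.40 and 1.05 to 1.55 in that order.

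**Figure D2:**
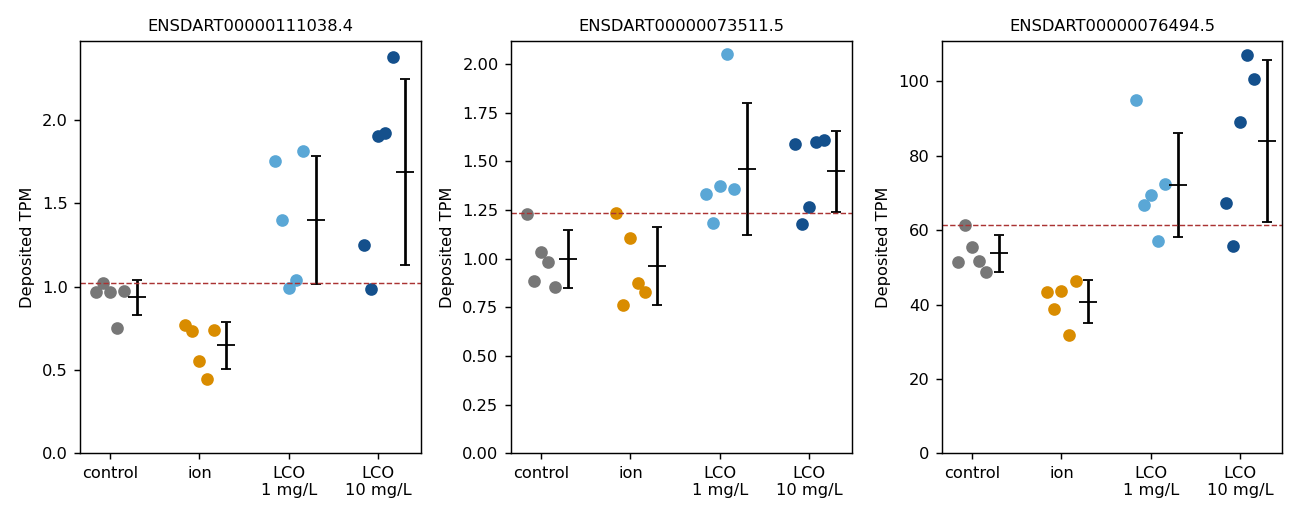
Deposited TPM of the 3 transcripts just outside the rule by the ratio of lowest LCO to highest other library, by group. Points are libraries, bars are the mean and SD of 5 libraries, and the dashed line is the highest untreated or ion library. The ion mean is the lowest of the 4 groups in each panel, though close to the untreated mean for ENSDART00000073511.5. In each panel 8 of 10 LCO points lie above the line.

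A TPM depends on everything else in its library, and replicates 2 and 3 of 10 mg/L differed from the other libraries in that respect. ENSDART00000182970.1, 168 bases long, had the highest TPM of any transcript in any library. Its mean effective length was 43.8 bases, so that each read adds more to its TPM than to that of a longer transcript. It was at 251493 TPM in replicate 2 and 82605 TPM in replicate 3 of 10 mg/L. In the other 18 libraries it ranged from 7412 to 42039 TPM with a median of 10412, and the highest of these was untreated replicate 4. Its estimated counts were also highest in replicates 2 and 3 of 10 mg/L, at 326061 and 99345, against 8677 to 69886 in the other 18 libraries. In replicate 2 of 10 mg/L it held 25.1% of all TPM but 1.31% of the estimated counts. The median TPM of the 33421 transcripts was 2.60 in that library, against 3.40 to 4.18 in the others. Transcripts of an effective length under 300 bases together held 36.8% and 19.3% of TPM in replicates 2 and 3 of 10 mg/L. In the other 18 libraries they held 9.89% to 14.2%. Rescaling TPM to the library sizes given by edgeR's TMM method, with the untreated mean set to 1, multiplied replicate 2 of 10 mg/L by 1.44 and the other 19 libraries by 0.896 to 1.08. The ion libraries were all scaled down, by 0.913 to 0.955, as were some untreated and LCO libraries.

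**Figure D3:**
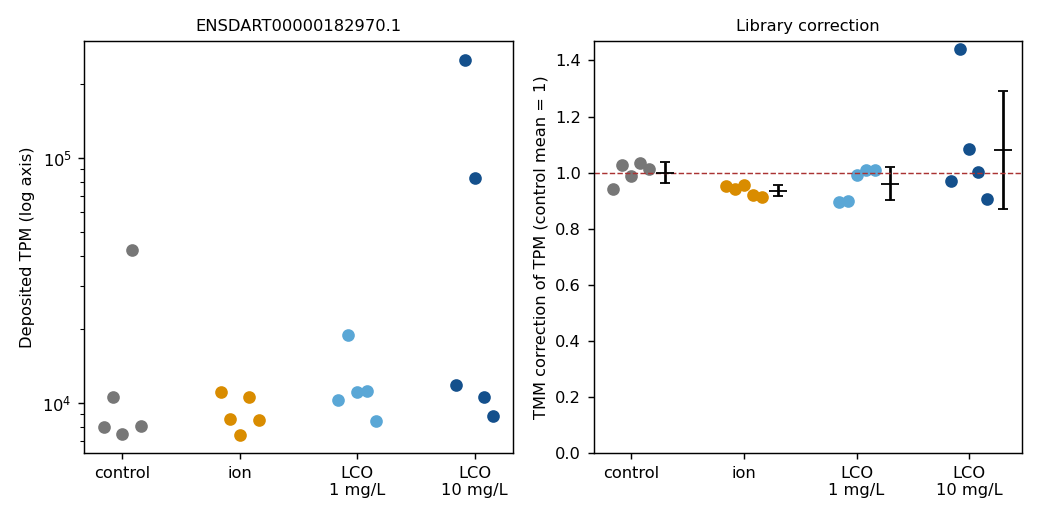
Left, deposited TPM of ENSDART00000182970.1 in each library on a log axis; right, the factor by which TMM rescales the TPM of each library, with the untreated mean at 1 (dashed line) and bars for the mean and SD of 5 libraries. Replicate 2 of 10 mg/L is the highest point in both panels, at 251493 TPM and 1.44.

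On the deposited TPM all 10 LCO libraries lay above all 5 untreated ones in 46 of the 33421 transcripts (0.138%), and above all 5 ion ones in 8 (0.0239%). Both held, with the condition on ion, in the 1 transcript described (0.00299%). The mirrored rule, with LCO below untreated and ion, was met by 306 (0.916%). On the TMM scale the corresponding counts of 33461 transcripts were 542 above untreated (1.62%), 233 above ion (0.696%), 83 meeting the whole rule (0.248%) and 132 meeting the mirrored rule (0.394%). The imbalance between the directions thus depended on the scale. Over all these transcripts the median log2 ratio of ion to untreated was 0.10 on the deposited TPM and 0.00 on the TMM scale, and that of LCO to untreated was 0.02 and 0.03. Of the 100 pairs that set an LCO library against an untreated or ion one, at least 90 had LCO higher in 55 transcripts on the deposited TPM and in 1182 on the TMM scale.

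ENSDART00000146037.2 was among the 83 and had the largest ratio of LCO to untreated mean of them, 1.81. On the TMM scale its levels were 6.04 ± 0.866 in untreated larvae and 6.78 ± 0.463 with ion, and 11.3 ± 1.71 and 10.6 ± 1.69 with the lower and the higher dose, in rescaled TPM (SD, n = 5 each). Replicate 2 of 10 mg/L, the lowest LCO library on the deposited TPM, was then at 11.3, with 2 libraries of its dose above it and 2 below. Replicate 1 of 10 mg/L, at 7.70, became the lowest, and the next lowest of that dose was 10.7. Ion exceeded all untreated libraries in 2 of 5 libraries on this scale, against 4 of 5 on the deposited TPM. The lowest LCO library was 1.07 times the highest other one, replicate 1 of ion, with an exact 95% counting interval of 0.975 to 1.17.

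The 83 transcripts that met the rule on the TMM scale were chosen by the rescaled values. Their levels for LCO against untreated or ion larvae describe that selection and carry no test, and other scales gave other lists. Their ratios of LCO to untreated mean were small, from 1.08 to 1.81 with a median of 1.2, beside a median of 1.02 over all 33461 transcripts. A ratio of 1.5 was reached by 3 of the 83, beside 1105 of the 33461, so this count is near the background. The margin between the lowest LCO and the highest other library was under 5% in 73 of the 83. The median log2 ratio to untreated was 0.28 for the lower dose, 0.23 for the higher dose and 0.03 for ion, beside 0.03, 0.01 and 0.00 over all 33461 transcripts. The ion mean was above the untreated mean in 62 of the 83, beside 17038 of 33461. Their median length was 3776 bases against 1779, and their median LCO level was 15.8 against 3.66 rescaled TPM. The gap between length and effective length, which follows the fragment length of a library, was 152 ± 5.98 bases in untreated libraries, 158 ± 6.06 with ion, 161 ± 4.39 with the lower dose and 162 ± 3.60 with the higher dose. The part of length, level and fragment length in these differences was not tested.

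**Figure D4:**
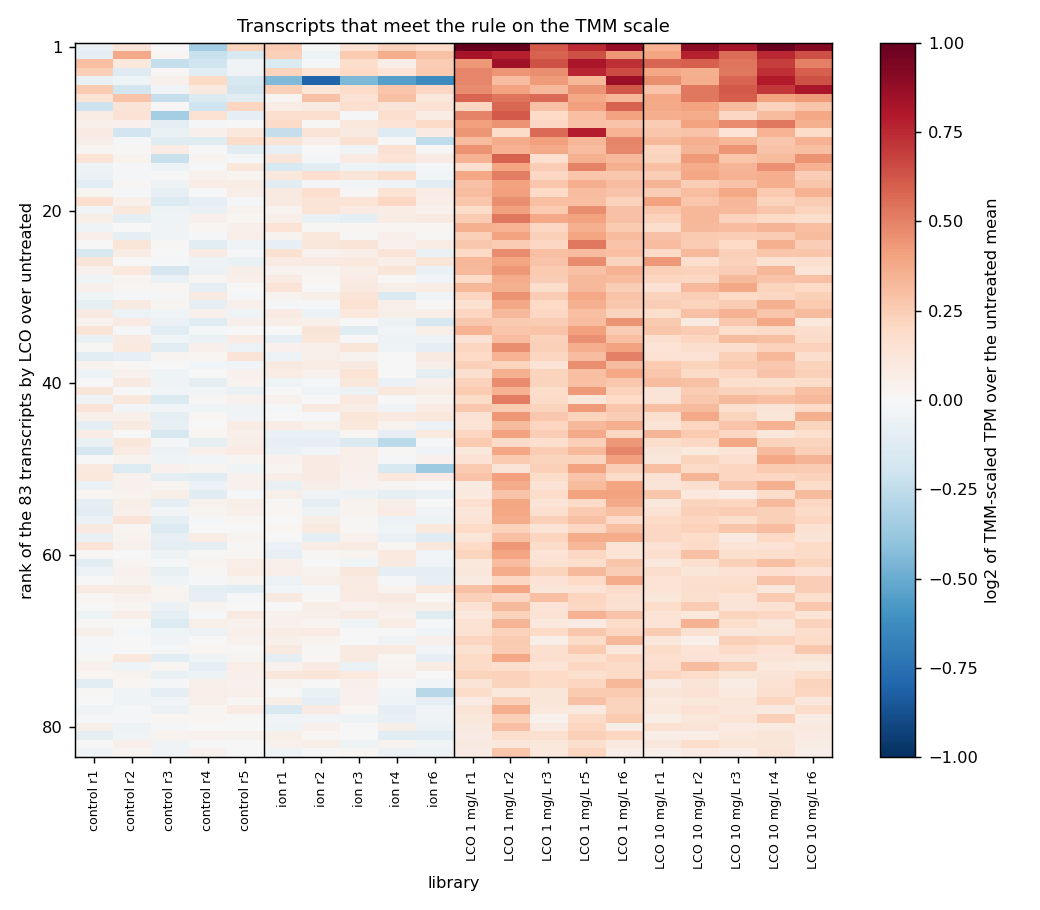
Each row is 1 of the 83 transcripts that met the rule on the TMM scale and each column a library; colour gives the log2 of the rescaled TPM over the untreated mean, with the colour scale ending at -1 and 1. The 10 LCO columns lie above the untreated mean in every row by the rule, in some cells only slightly. The median log2 ratio of means to untreated is 0.26 for LCO and 0.03 for ion. ENSDART00000146037.2 is the top row.

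Several of the 83 are given by name, picked after the values were seen for the size of their ratio, their level or their margin. After ENSDART00000146037.2 the largest ratios of LCO to untreated were 1.56 in ENSDART00000193338.1, 1.56 in ENSDART00000142465.3 and 1.46 in ENSDART00000185717.1. ENSDART00000142465.3, 9428 bases long, was at 18.1 ± 2.84 rescaled TPM in untreated larvae, 19.1 ± 2.08 with ion, 29.4 ± 3.24 with the lower dose and 27.1 ± 1.36 with the higher dose. Its lowest LCO library, at 24.5, was above its highest untreated library, at 22.3. ENSDART00000193338.1, 1914 bases long, was at 75.7 ± 13.4 rescaled TPM in untreated larvae, 88.8 ± 9.23 with ion, 120 ± 12.8 with the lower dose and 117 ± 12.2 with the higher dose. Its ion mean lay between, at 1.17 times the untreated mean, and its lowest LCO library was at 1.01 times the highest untreated one. The most abundant was ENSDART00000058503.7, at 221 ± 11.0 in untreated larvae, 232 ± 6.78 with ion and a mean of 273 under LCO. Next was ENSDART00000169275.2, at 123 ± 2.76, 127 ± 3.18 and 146 in the same unit. Of their 5 ion libraries, 1 and 4 in that order lay above all untreated ones on the TMM scale. On the deposited TPM all 5 did so in both transcripts, which would bar them there. They also lacked separation on that scale, where 8 and 7 of the 10 LCO libraries in that order lay above all untreated and ion ones.

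The widest margin among the 83 belonged to ENSDART00000080042.7, 3722 bases long, whose groups were each tight. It was at 6.02 ± 0.337 rescaled TPM in untreated larvae, 5.78 ± 0.189 with ion, 7.56 ± 0.279 with the lower dose and 7.44 ± 0.247 with the higher dose. The lowest LCO library was 1.13 times the highest untreated or ion library, and the ion mean was 0.960 times the untreated mean. On the deposited TPM the same transcript was at 4.97 in replicate 2 of 10 mg/L, below all 10 untreated and ion libraries, the lowest of which was at 5.86. ENSDART00000165119.2, 6770 bases long, had the next margin, 1.1, with 10.6 ± 0.492 in untreated larvae, 10.9 ± 0.284 with ion and 13.0 under LCO.

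In 2 of the 83 transcripts all 5 ion libraries were below all 5 untreated ones on the TMM scale, opposite to LCO. Over all 33461 transcripts this order was met by 645 (1.93%), so the count is near the background. ENSDART00000173065.2, 701 bases long, showed the larger difference. It was at 34.4, 35.2, 37.7, 41.6 and 32.6 rescaled TPM in untreated replicates 1 to 5, and at 26.7, 20.9, 26.5, 24.8 and 23.4 in ion replicates 1, 2, 3, 4 and 6. At 1 mg/L it was at 50.9, 45.1, 48.8, 45.8 and 65.7, and at 10 mg/L at 50.2, 46.7, 54.3, 62.8 and 56.4, in the order of replicates given above. That these 3 conditions did not overlap, with both doses taken as 1 condition, follows from how the transcript was picked and is no separate result. The LCO mean was 1.45 times and the ion mean 0.674 times the untreated mean. On the deposited TPM replicate 2 of 10 mg/L was at 32.5 and lay among the untreated libraries, which ranged from 32.2 to 40.3. The other transcript, ENSDART00000123601.4, had an ion mean of 0.970 times and an LCO mean of 1.11 times the untreated mean.

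Between the doses, 0 of the 83 were called by edgeR, DESeq2 or limma-voom. Of all 39355 tested transcripts, edgeR called 84 (0.213%), DESeq2 499 and limma-voom 21. At an unadjusted edgeR p under 0.05 there were 4 of 83 (4.82%), all lower at 10 mg/L, beside 8.70% of the 33061 tested transcripts that had a mean LCO level of at least 0.5, of which 984 were lower and 1891 higher. The mean at 10 mg/L was above that at 1 mg/L in 13 of 83, beside 16755 of 33461 over all. All libraries of 10 mg/L were above all of 1 mg/L in 0 of the 83 and below them in 0, beside 1.16% and 0.362% of the 33461. At such low shares 0 of 83 is no departure from the background. The counts between the doses are also not independent of the selection, since the rule asked for high values at both.

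On the TMM scale no LCO library was the lowest in more than 18 of the 83. The highest untreated or ion library was an ion one in 54 of the 83. The share over all transcripts is not given for this count, which is a description only. On the deposited TPM, replicate 2 of 10 mg/L was not above all untreated and ion libraries in 82 of these 83. Replicate 3 of 10 mg/L was not in 64, and each other LCO library in 29 or fewer. Replicate 2 was the only such LCO library in 11. The 83 were picked on the TMM scale, which multiplied replicates 2 and 3 of 10 mg/L by 1.44 and 1.08. Going back to the deposited TPM undoes this, so these counts describe the change of scale and are no separate result. Their shares over all transcripts are not given. Leaving out replicate 2 of 10 mg/L raised the count on the deposited TPM from 1 to 16. Leaving out ion replicate 2 lowered it to 0, since the remaining 4 ion libraries were then all above the untreated ones.

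**Figure D5:**
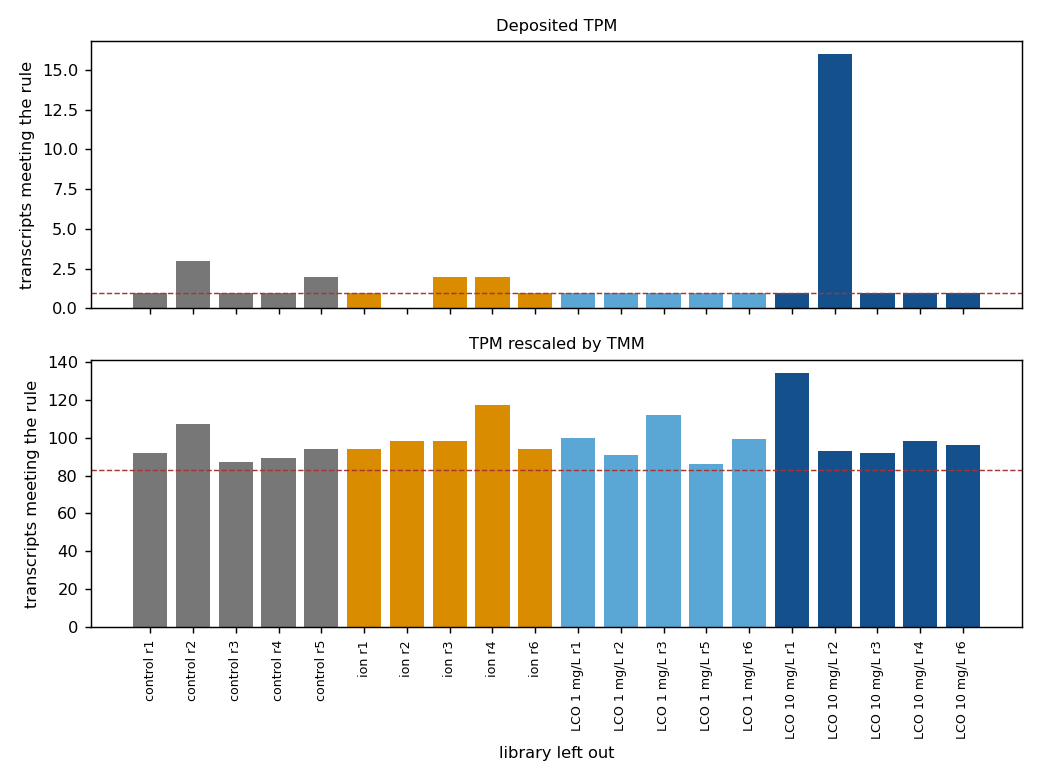
Number of transcripts that met the rule when the library on the horizontal axis was left out, on the deposited TPM (top) and on TPM rescaled by TMM (bottom); the dashed line is the number with all 20 libraries. On top, the bar for replicate 2 of 10 mg/L stands at 16 and that of ion replicate 2 at 0; below, replicate 1 of 10 mg/L gives the highest bar, 134.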

How the data were processed

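RNA of whole zebrafish larvae was sequenced in 20 libraries, 5 for each treatment label. Per the submitters' processing notes, kallisto 0.45.0 was among the tools, as were cutadapt 1.18 and FastQC 0.11.5, and the build was GRCz11; settings and annotation release are not given in the sources used here. The authors deposited TPM and estimated counts per transcript and library, beside both its lengths, per the file headers. Dividing estimated counts by effective length gave the deposited TPM back to within 0.00105% for values above 1. The deposited length and effective length are in bases.

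The rule was applied to the deposited TPM. The member, the lists and the choices were made with earlier results of these data known. For the TMM scale, TPM was multiplied per library so that values refer to the library sizes of edgeR's TMM method, with an untreated mean factor of 1. Rounded estimated counts were fitted in R 4.3.3 with edgeR 4.0.16 (filterByExpr by group, minimum count 10, 39355 transcripts, TMM, glmQLFit and glmQLFTest, two-sided, Benjamini-Hochberg adjustment), with all 20 libraries and group as the factor; only 10 against 1 mg/L was tested. The SE is the log2 fold change divided by the square root of F. DESeq2 1.42.0 and limma 3.58.1 gave alternatives. The test and the rule were checked on simulated data. The naming rule took the members first by ratio, level and margin, those called or with the smallest p between the doses, and the 3 transcripts just outside separation; with 1 member it gave that transcript and those 3. The gene lists and tissue markers written for named genes could not be used, because 0 of 57775 identifiers matched. Exact intervals cover counting error only. They leave out that the 2 libraries were picked as extremes and any error in assigning reads to transcripts.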

Additional observations from a re-analysis of the deposited data

Results flagged for a closer look

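Within groups of 5 libraries, the highest or lowest library of a named transcript was compared with the others by Dixon's criterion, over 112 combinations of transcript, scale and group. It marked 8 of the 112, and chance alone marks about 1 in 20 groups. The combinations are not independent, since both scales rest on the same counts, and the named transcripts were picked for their values. The number of marks is therefore not read as an excess. The following libraries stood apart from the other 4 of their group. For ENSDART00000146037.2 it was replicate 1 of 10 mg/L, at 7.70 rescaled TPM. For ENSDART00000111038.4 it was untreated replicate 4, at 0.752 TPM, and for ENSDART00000073511.5 it was replicate 5 of 1 mg/L, at 2.05 TPM. For ENSDART00000173065.2 it was replicate 6 of 1 mg/L, at 65.7 rescaled TPM. The other marks fell on ENSDART00000182970.1, at 42039 TPM (43433 rescaled) in untreated replicate 4, at 18892 TPM in replicate 2 of 1 mg/L and at 362015 rescaled TPM in replicate 2 of 10 mg/L. The cause of these values was not tested.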

How the results depend on the processing

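The number of transcripts meeting the rule, 1 on the deposited TPM, was 83 on the TMM scale. In settings chosen after seeing the data it was 122 with edgeR's RLE method in place of TMM, which held 80 of those 83. Further such settings gave 10 with TPM recomputed without ENSDART00000182970.1, of which 6 were among the 83. They gave 23 without transcripts of an effective length under 300 bases, of which 14 were among the 83. Without replicates 2 and 3 of 10 mg/L they gave 63. ENSDART00000146037.2 met it under each of these scales. Leaving out 1 library gave 0 to 16 (2 without untreated replicate 5 or ion replicates 3 or 4, 3 without untreated replicate 2) on the deposited TPM and 86 to 134 on the TMM scale, the last without replicate 1 of 10 mg/L. A minimum mean of 0.1 or 1 TPM left 1. The ratios of ENSDART00000146037.2 to untreated and ion moved by less than the spread between libraries. Its log2 fold change between the doses, -0.09, ranged from -0.15 to 0.012 without 1 library, turning positive without replicate 1 of 10 mg/L, and it was never called. The 84 transcripts called between the doses became 45 with no filter, 0 with only both LCO groups fitted (2505 at an unadjusted p under 0.05), 499 with DESeq2, 21 with limma-voom and 1 (without replicate 6 of 1 mg/L) to 226 (without replicate 3 of 1 mg/L) without 1 library, within 1.5 times of 84 only without replicate 1 of 10 mg/L. With the replicate number as a block they were 21; deviations of same-numbered libraries of the doses correlated at -0.20, 0.17, -0.02 and -0.03, so the numbers were not taken to pair them. The cause of these shifts was not tested. Depth limits the order of libraries as given for the lowest LCO and highest other library.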
